A study of Mus musculus with 20 samples.

Results

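The 9 genes described here are the PEA3 group of ETS transcription factors (Etv1, Etv4 and Etv5) and 6 inhibitors that the ERK pathway induces against itself (Spry1, Spry2, Spry4, Spred1, Spred2 and Dusp6). They were taken by name from the 35006 genes of each count table. Etv4 was chosen by its counts in old mice, where it differed between NACET-treated and control retinas, and the other 8 were chosen as its relatives in the same pathway. Values for the 9 genes in that contrast are therefore given as a description, and its test is not used as evidence for any of them.

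When a fibroblast growth factor (FGF) or an epidermal growth factor family ligand binds its receptor, the signal passes through RAS, RAF and MEK to the kinase ERK. ERK lifts the repression that the factor capicua (CIC) holds over the Etv genes and activates ETS factors, so that the PEA3 genes and the inhibitors are commonly used as transcriptional readouts of FGF signalling. Sprouty (Spry) and Spred proteins act on the RAS and RAF steps, and Dusp6 removes phosphate from ERK itself. In the retina, FGF and ERK signalling is best known in development, in the survival of neurons and in the response of Müller glia to injury.

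Retinal polyA RNA was sequenced from 20 C57BL/6J mice, with 1 retina and 1 library per mouse. Untreated groups were 4 young controls of 119 days and 4 old controls of 668 days. Treated mice drank water with NACET (the ethyl ester of N-acetyl-L-cysteine, which enters cells and releases cysteine) at 50 mg/kg per day for 5 days. They were 6 young mice of 129 days (4 mice) or 119 days (2 mice) and 6 old mice of 668, 581 and 574 days, with 2 mice at each age. Labels gave 2 females in each young group and no female in the old groups, whereas the study's methods mention males only. Old control replicate 4 carried a female transcript pattern against its male label, and young NACET replicate 6 has conflicting ages in its labels.

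The libraries held 17.7 to 31.1 M gene counts (M, 1e+06 counts). Marker genes of rods and of Müller glia, 9 and 10 genes, were all detected in all 20 libraries. Some libraries stood apart in markers of neighbouring tissue. The summed level of 10 corneal and conjunctival markers was 485 CPM (counts per 1e+06 gene counts) in old control replicate 2 and 472 CPM in young NACET replicate 4, against 16.1 to 34.0 CPM in old NACET libraries. It was 220 and 244 CPM in young NACET replicates 3 and 5, and 20.3 to 29.2 CPM in young controls. The sum of 9 lens markers was 11540 CPM in old NACET replicate 1 and at most 22.4 CPM in any other library. Values without old control replicate 2, young NACET replicate 4 or old NACET replicate 1 are given below for Etv4, Etv5, Spry1 and Spry2. Those without young NACET replicate 3 or 5 are given for Etv4.

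All 9 genes were detected in every library and passed the expression filter in every comparison. Counts per gene and library ran from 66 (Etv4) to 2509 (Spred1). For a comparison between genes, CPM was divided by exon length in kilobases (mm9, GENCODE). On this scale, as medians over 20 libraries, Spry2 (15.4) and Spred1 (12.1) were highest. Etv5 (5.27), Dusp6 (4.54), Spred2 (3.63) and Spry4 (2.72) followed, and Etv4 (2.09), Spry1 (1.72) and Etv1 (1.05) were lowest. Only between Spred1 and Etv5 did neighbours in this order have ranges that did not overlap, with 10.6 the lowest value for Spred1 and 6.37 the highest for Etv5. Spry2 and Spred1 thus stood above the other 7 genes in every library. No other annotated gene overlapped any of the 9, so reads counted without regard to strand could not come from an annotated neighbour.

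Promoter sequence was examined for letters known to be read by factors of this pathway. RefSeq (GRCm38.p6) promoter windows were matched for 7 of the 9 genes, as 9 windows, and the 250 bases before the start were searched on both strands. Etv4 and Spry4 had no window, so their promoters were not searched. The CIC octamer was searched as TGAATGAA, TGAATGGA, TCAATGAA or TCAATGGA. It was found in 2 of the 9 windows, those of Spry2 and Dusp6, and in 3.19% of 32851 promoters overall. In both, it lay on the strand opposite to the gene, 54 bases before the start of Spry2 and 24 before that of Dusp6. The last 100 bases before each start are shown because they hold the only match to any motif searched, with the octamer in capitals as it reads on the gene's strand (chr14:105896820-105896919, minus strand, for Spry2 and chr10:99263131-99263230, plus strand, for Dusp6).
Spry2: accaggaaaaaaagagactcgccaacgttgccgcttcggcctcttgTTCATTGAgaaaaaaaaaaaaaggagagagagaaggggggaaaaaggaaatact
Dusp6: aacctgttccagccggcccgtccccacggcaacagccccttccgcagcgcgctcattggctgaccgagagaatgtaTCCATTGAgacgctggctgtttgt
None of the 9 windows held the ETS core CCGGAAG, the AP-1 site TGANTCA, the cyclic AMP response element TGACGTCA or the core TGACNNNGC of the antioxidant response element, through which the oxidative stress factor NRF2 acts. These were present in 6.91%, 6.75%, 1.55% and 10.2% of all promoters. A match of letters does not show that a factor binds there.

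Etv4 (chromosome 11, 101631056 to 101646685, minus strand, mm9, protein-coding) encodes the PEA3 factor for which the group is named. In old controls it was at 4.68, 4.38, 4.32 and 4.94 CPM. In old NACET libraries it was at 7.30, 6.26, 6.97, 7.56, 9.01 and 7.13 CPM. Every treated old retina lay above every untreated one, and the controls were close together. The means were 4.58 ± 0.287 CPM (SD, n = 4) and 7.37 ± 0.916 CPM (SD, n = 6). This was 1.60-fold, or 0.68 on the log2 scale (SE 0.10). These are the values by which Etv4 was chosen. In bulk RNA, more cells that express a gene and more RNA per cell cannot be told apart.

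The old NACET mice came from 3 age cohorts, while all old controls were 668 days old. Etv4 averaged 6.78 CPM in the 668-day NACET mice, 7.27 CPM at 581 days and 8.07 CPM at 574 days, with 2 mice each. The 668-day treated mice were at 7.30 and 6.26 CPM. These libraries are among those that chose Etv4, so that their place above the controls is no separate evidence, and the part of the cohorts in the difference was not tested. Fitted on the 668-day mice alone, the log2 change was 0.56 (SE 0.13). It was 0.66 (SE 0.12) without old control replicate 2, the library with high corneal markers, and 0.68 (SE 0.11) without old NACET replicate 1, the library with lens markers. It was 0.72 (SE 0.11) without old control replicate 4, whose sex label did not match.

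Markers of the cornea and of the retinal pigment epithelium were lower in the same treated mice, whereas lens markers were high in old NACET replicate 1. The 10 corneal and conjunctival markers summed to 27.1 to 485 CPM in old controls and 16.1 to 34.0 CPM in old NACET libraries, and 9 and 6 of them were detected in every library of the group. The 9 markers of the retinal pigment epithelium summed to 102 to 223 CPM and 35.8 to 124 CPM, with none at 0. Müller glia markers summed to 3214 to 3757 CPM and 3479 to 3917 CPM. Etv4 in old control replicate 2, with the highest corneal and pigment epithelium sums, was 4.38 CPM, within the range of the other 3 controls, and the part of these markers in the Etv4 and Etv5 values was not tested.

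**Figure D1:**
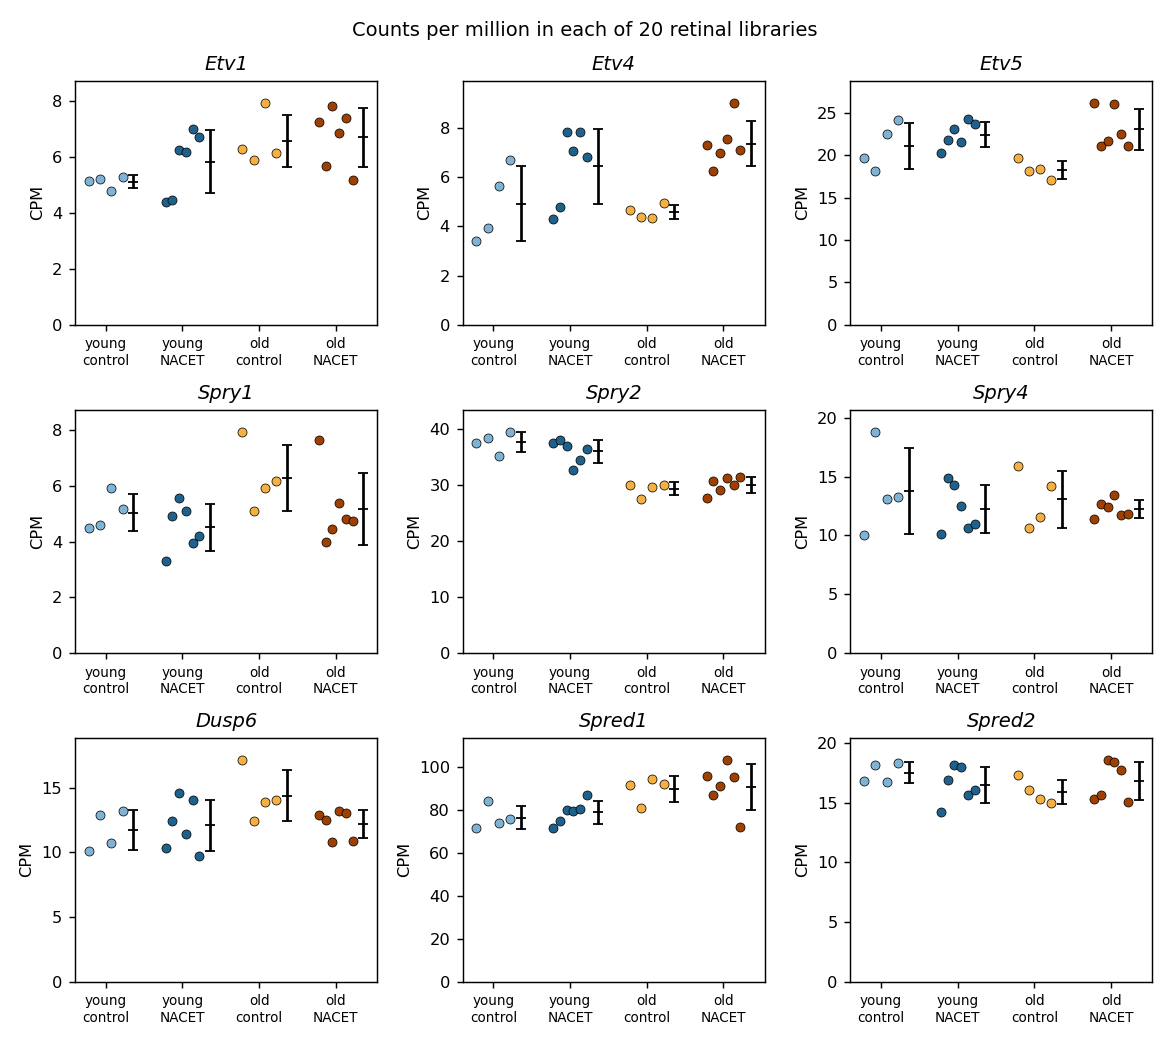
Level of each of the 9 genes in CPM (vertical axes, linear from 0) in every library, by group on the horizontal axes. Points are libraries, in replicate order, and the bar beside them is the mean ± SD. In old mice the Etv4 points of the 6 NACET libraries (6.26 to 9.01 CPM) lie above those of the 4 controls (4.32 to 4.94 CPM), and the Spry2 points of all 10 old libraries lie below those of all 10 young ones.

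Etv5 (chromosome 16, 22381382 to 22439792, minus strand), a close relative that is also induced by FGF, had a like order in the old mice. It was at 19.7, 18.1, 18.3 and 17.0 CPM in old controls. Under NACET it was at 26.2, 21.1, 21.7, 26.1, 22.5 and 21.0 CPM. Again no treated value fell within the control range. The log2 change was 0.33 (SE 0.07), or 1.26-fold, and it was 0.36 (SE 0.09) in the 668-day mice alone. Without old control replicate 2 it was 0.33 (SE 0.09), and without old NACET replicate 1 it was 0.29 (SE 0.07).

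Etv1 (chromosome 12, 39505967 to 39594802, plus strand), the third PEA3 gene, overlapped between the old groups. Its levels were 5.89 to 7.94 CPM in old controls and 5.19 to 7.85 CPM in old NACET libraries, with a log2 change of 0.03 (SE 0.13). Of the 3 PEA3 genes, Etv4 and Etv5 separated treated from untreated old retinas and Etv1 did not.

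The inhibitors did not show the order of Etv4 in the old mice. Dusp6 (chromosome 10, 98725865 to 98730122, plus strand) was at 17.1, 12.5, 13.9 and 14.0 CPM in old controls. It was at 12.9, 12.5, 10.8, 13.2, 13.1 and 10.9 CPM under NACET. The treated values were mostly the lower ones, with a log2 change of -0.24 (SE 0.09), and the groups overlapped. Spry1 (chromosome 3, 37538869 to 37543520, plus strand) had a log2 change of -0.28 (SE 0.16), with 5.12 to 7.94 CPM in controls and 3.99 to 7.63 CPM under NACET. This value varied with single libraries. It was -0.17 (SE 0.17) without old control replicate 1, -0.42 (SE 0.12) without old NACET replicate 1 and -0.37 (SE 0.17) without old control replicate 2. In the 668-day mice alone it was -0.11 (SE 0.24). For Spry4, Spry2, Spred1 (chromosome 2, 116947110 to 117008015, plus strand) and Spred2 (chromosome 11, 19824378 to 19924029, plus strand), log2 changes lay between -0.09 and 0.07, and the groups overlapped. None of the 6 inhibitors separated the groups.

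Over the 9 genes in old mice, the median log2 change on NACET was 0.03, and 6 were above 0. The edgeR fit called 1 of the 9, the gene it had been used to choose (Etv4), and 0.543% of 16562 genes. Without overlap of CPM between the groups were 2 of the 9, Etv4 and Etv5, and 3.57% of all genes. Because this contrast supplied Etv4, nothing is read from these counts.

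The contrast on NACET in young mice did not supply Etv4, although the genes were chosen with earlier results of these data known. Etv4 was at 3.40, 3.95, 5.66 and 6.70 CPM in young controls. It was at 4.28, 4.80, 7.83, 7.05, 7.83 and 6.84 CPM in young NACET libraries. Both young groups were spread widely and overlapped. The means were 4.93 ± 1.52 CPM (SD, n = 4) and 6.44 ± 1.53 CPM (SD, n = 6). The log2 change was 0.37 (SE 0.20), and the edgeR adjusted p was 1 (unadjusted p 0.0900). A p that misses the threshold does not show that the groups were alike.

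The spread among young controls followed the labelled sex. The 2 young controls labelled female had 5.66 and 6.70 CPM of Etv4 and the 2 labelled male had 3.40 and 3.95 CPM. Under NACET, the labelled females had 7.83 and 6.84 CPM and the 4 labelled males 4.28 to 7.83 CPM. With labelled sex as a covariate, the log2 change of Etv4 in young mice was 0.48 (SE 0.16, edgeR adjusted p 0.999), and no setting tried brought it past the threshold. Etv5 in young controls was at 22.5 and 24.1 CPM in labelled females and 19.7 and 18.2 CPM in labelled males. With 2 mice of each sex these differences were not tested.

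No member was called in young mice under NACET. By edgeR, 0% of the 16588 genes tested were called, 724 had an unadjusted p under 0.05, and DESeq2 called 0 as well. None of the 9 had an unadjusted p under 0.05, and none separated the groups, against 0.723% of all genes. The log2 changes ranged from -0.19 (Spry4, SE 0.15) to 0.37 (Etv4), with a median of 0.03, and 5 of 9 were above 0. Etv5 had a log2 change of 0.08 (SE 0.09), Etv1 of 0.18 (SE 0.14), Spry1 of -0.18 (SE 0.14) and Dusp6 of 0.03 (SE 0.12). Without young NACET replicate 4, the young library with the highest corneal markers, Etv4 was at 0.36 (SE 0.22), Etv5 at 0.10, Spry1 at -0.20 (SE 0.15) and Spry2 at -0.03. Young NACET replicates 3 and 5 also had high corneal markers (220 and 244 CPM). Etv4 was at 0.32 (SE 0.21) without replicate 3 and at 0.31 (SE 0.21) without replicate 5. These libraries were left out singly and not together.

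Whether NACET acted differently at the 2 ages was fitted as an interaction over all 20 libraries, which include those that chose Etv4. None of the 9 was called, and 0% of 16993 genes were called by edgeR, with 1052 at an unadjusted p under 0.05. DESeq2 called 88 genes and none of the 9. For Etv4, the change on NACET was larger in old mice by 0.30 on the log2 scale (SE 0.24, edgeR adjusted p 0.927). For Etv5 it was larger by 0.25 (SE 0.11, adjusted p 0.775), the only one of the 9 with an unadjusted p under 0.05. For Dusp6 the interaction was -0.27 (SE 0.15, adjusted p 0.833).

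**Figure D2:**
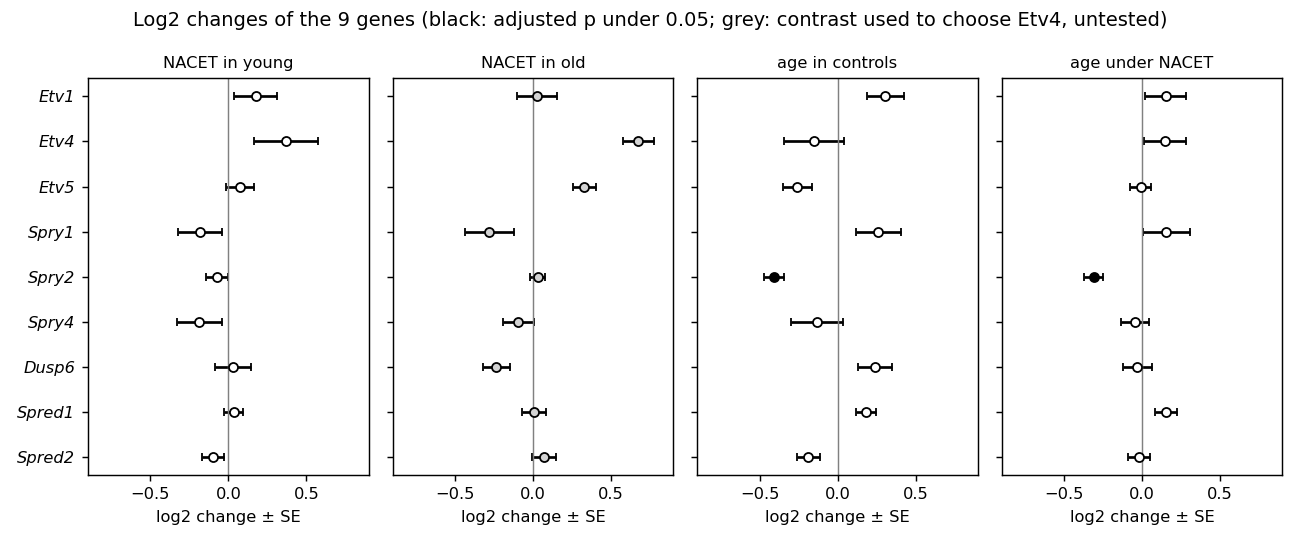
Log2 change ± SE (horizontal axes) of the 9 genes (rows) in 4 comparisons (panels), from edgeR. Black points passed an adjusted p under 0.05, and grey points belong to the contrast that chose Etv4. Spry2 is the only black point, at -0.41 with age in controls and at -0.31 with age under NACET.

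Spry2 was lower in old than in young retinas. Spry2 (chromosome 14, 106291166 to 106296036, minus strand) encodes a Sprouty inhibitor of receptor signalling to RAS. It was at 37.6, 38.4, 35.2 and 39.6 CPM in young controls and at 30.1, 27.6, 29.7 and 29.98 CPM in old controls. The lowest young value was 5.15 CPM above the highest old one. The means were 37.7 ± 1.84 CPM (SD, n = 4) and 29.4 ± 1.16 CPM (SD, n = 4). Old over young was 0.752-fold, which is -0.41 on the log2 scale (SE 0.06, adjusted p 0.00742 by edgeR). In this comparison 1.42% of 16484 genes were called, and Spry2 was the only one of the 9.

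The NACET-treated mice, which share no library with the controls, gave a second set of old and young retinas. Spry2 was at 37.6, 38.0, 37.1, 32.7, 34.6 and 36.5 CPM in young NACET libraries and at 27.8, 30.8, 29.2, 31.3, 30.1 and 31.6 CPM in old NACET libraries. All 6 old values were again below all 6 young ones. The log2 change was -0.31 (SE 0.06, edgeR adjusted p 0.00526), or 0.806-fold. Of 16276 genes, 4.88% were called in this comparison, and Spry2 was again the only member among them.

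The lower Spry2 level of old mice was called in all 14 alternative fits in controls and in all 18 under NACET, with log2 changes from -0.44 to -0.39 and from -0.36 to -0.28. Without old control replicate 2, which had the lowest Spry2 value of its group and high corneal markers, it was -0.39 (edgeR adjusted p 0.0401). Without old control replicate 4 it was -0.43 (adjusted p 0.0204), and with labelled sex as a covariate it was -0.43 (adjusted p 0.0487). Under NACET, leaving out young replicate 4 gave -0.36 (adjusted p 0.000907) and leaving out old replicate 1 gave -0.29 (adjusted p 0.0169). Spry2 in young controls averaged 37.4 CPM in labelled females and 38.0 CPM in labelled males. In old NACET mice it averaged 29.3, 30.2 and 30.8 CPM at 668, 581 and 574 days.

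Markers of several cell types also differed with age. The sum of 9 rod markers was 81560 to 98310 CPM in young controls and 71840 to 86660 CPM in old controls, and 77690 to 96460 CPM in young and 64470 to 77710 CPM in old NACET libraries. The sum of 10 Müller glia markers was 2859 to 3513 CPM in young and 3214 to 3757 CPM in old controls, and 3295 to 3747 and 3479 to 3917 CPM under NACET. Of 9 retinal ganglion cell markers, 0 were higher in old controls, with a median log2 change of -0.29, and edgeR called 0, 5 had an unadjusted p under 0.05 and DESeq2 called 4. Their summed level was 924 to 1202 CPM in young and 845 to 1100 CPM in old controls, and 934 to 1400 and 928 to 1239 CPM under NACET, where the median log2 change was -0.16. Of 9 microglia markers, all were higher in old controls (median log2 change 0.45, none called by edgeR, 5 at an unadjusted p under 0.05, 1 called by DESeq2). Under NACET, 8 of 9 were higher in old mice (median 0.55) and edgeR called 5. The microglia sums did not overlap between ages in controls, at 26.4 to 39.0 CPM in young and 40.99 to 47.8 CPM in old, and were 26.3 to 42.0 and 40.3 to 50.4 CPM under NACET. All of the rod, Müller glia, ganglion cell and microglia markers were detected in every library. The part of these shifts in the Spry2 difference was not tested. On NACET at either age, Spry2 had log2 changes of -0.07 (SE 0.07, young) and 0.03 (SE 0.05, old).

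The other 8 genes were not called with age. In controls, 6 of the 9 had an unadjusted p under 0.05, in both directions, as did 16.3% of all genes tested. Under NACET they were 2 of the 9 and 21.1% of all genes. Spred1, a membrane-bound relative of the Sproutys, had 71.7, 84.0, 74.0 and 75.6 CPM in young and 91.7, 80.7, 94.4 and 91.8 CPM in old controls, and only old replicate 2 fell within the young range. The difference was 0.18 on the log2 scale (SE 0.06, adjusted p 0.176 by edgeR). Under NACET it was 0.15 (SE 0.07, adjusted p 0.224). It was called only without old NACET replicate 6, which had 72.0 CPM against 87.0 to 103 CPM in the others (0.21, adjusted p 0.0337).

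Etv1 had 4.79 to 5.30 CPM in young and 5.89 to 7.94 CPM in old controls, without overlap. The difference was 0.31 on the log2 scale (SE 0.12, adjusted p 0.235 by edgeR). Under NACET the ages overlapped, and the log2 change was 0.15 (SE 0.13, adjusted p 0.546). In controls 11.3% of all genes separated the ages, and 2 of the 9 did, Etv1 and Spry2. Under NACET 4.07% of all genes did, and Spry2 alone of the 9.

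Etv5 and Dusp6 had opposite signs with age in controls, with log2 changes of -0.26 (SE 0.09, edgeR adjusted p 0.213) and 0.24 (SE 0.11, adjusted p 0.303). Both were close to 0 with age under NACET, at -0.01 (SE 0.07) and -0.03 (SE 0.09). Old controls enter both the age contrast in controls and the NACET contrast in old mice, so that opposite signs in these contrasts are not independent. Etv4 had a log2 change of -0.15 with age in controls (SE 0.19, adjusted p 0.742) and of 0.15 under NACET (SE 0.13, adjusted p 0.564). With labelled sex as a covariate the value in controls turned to 0.26 (SE 0.15).

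**Figure D3:**
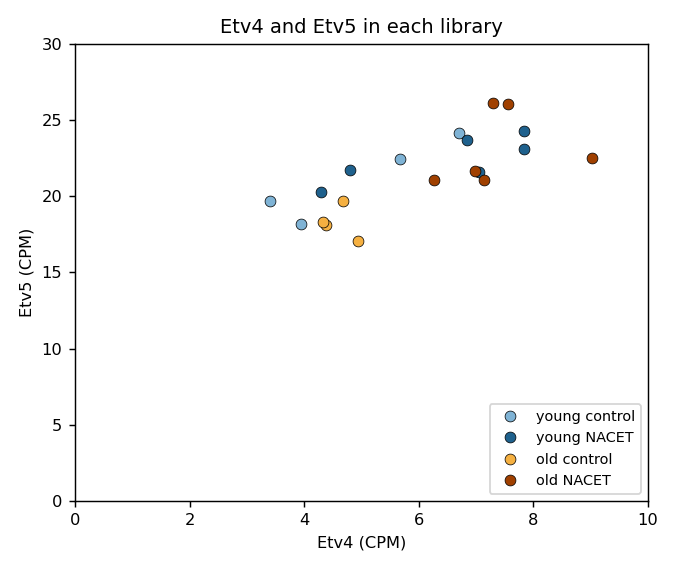
Etv5 (vertical axis) against Etv4 (horizontal axis), both in CPM on linear axes from 0, with 1 point per library coloured by group. The 4 old controls (Etv4 4.32 to 4.94 CPM) lie to the lower left of the 6 old NACET libraries (Etv4 6.26 to 9.01 CPM), and the young libraries overlap both.

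Among the other 8 genes, Etv5 followed Etv4 most closely from library to library. Over 20 libraries, Pearson's r of log2 CPM with Etv4 was 0.75 for Etv5, which ranked 42 among 16992 genes. It was 0.48 for Etv1, 0.30 for Spred1 and 0.26 for Spred2, and between -0.20 (Spry2) and 0.09 (Dusp6) for the remaining 4. With the group means removed, the order among the inhibitors was different. Within groups r was 0.63 for Etv5, 0.52 for Etv1, 0.43 for Dusp6, 0.41 for Spry1, 0.38 for Spred2, 0.31 for Spred1, 0.11 for Spry4 and -0.23 for Spry2. These values are descriptive, since libraries of a group share treatment and age, and the 20 libraries include those that chose Etv4. The 5 genes most like Etv4 over the 20 libraries were Slc17a5 (0.88), a lysosomal sialic acid transporter, Dlg1 (0.85), a synaptic scaffold, Tbc1d8b (0.84), Sh2d5 (0.84) and U2af1l4 (0.83). With the group means removed, their r was 0.85, 0.76, 0.71, 0.76 and 0.71 in the same order.

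The rest of the pathway was examined from lists of ligands, receptors, signalling proteins, inhibitors and readouts. On NACET in old mice, 0 of 14 ligands tested, 0 of 9 receptors and 0 of 20 adaptors and kinases were called by edgeR, with median log2 changes of 0.02, 0.14 and 0.04. The median of all genes was 0.00205. At an unadjusted p under 0.05 were 2 of each list and 14.4% of all genes tested, and DESeq2 called 1 ligand, 1 receptor and 0 of the adaptors and kinases, naming Btc and Erbb3. The ligand with the smallest p was Btc (betacellulin), at -0.37 (SE 0.09, adjusted p 0.0708), followed by Egf at -0.33 (SE 0.14, adjusted p 0.309). Among receptors these were Erbb3, at -1.74 (SE 0.39, adjusted p 0.0658), and Erbb4, at 0.22 (SE 0.09, adjusted p 0.266). Among the signalling proteins they were the receptor adaptor Frs2, at -0.13 (SE 0.05, adjusted p 0.251), and Hras1, at 0.13 (SE 0.05, adjusted p 0.262). Summed corneal markers were at 27.1 to 485 CPM in the old controls and 16.1 to 34.0 CPM in the old NACET libraries. Their part in the Erbb3 value was not tested.

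Of 12 other inhibitors, edgeR called 1 in old mice on NACET, against 0.543% of all genes. At an unadjusted p under 0.05 were 3 of the 12 and 14.4% of all genes. The called gene was Spred3, the third Spred gene. It went from 38.9 CPM on average in controls (SD 4.67, n = 4) to 49.4 CPM in treated mice (SD 3.23, n = 6). The log2 change was 0.34, with an SE of 0.06 and an edgeR adjusted p of 0.0359. The lowest treated value was 46.1 CPM and the highest control value 45.0 CPM, and 3.57% of all genes separated these groups. Spred3 was not followed across the alternative fits. The median of that list was 0.01. Of 9 other readouts of ERK signalling, Vgf, a nerve growth factor-inducible neuropeptide precursor, rose by 0.53 on the log2 scale (SE 0.11, adjusted p 0.0491). Its controls were at 20.0 to 24.8 CPM and its treated libraries at 24.6 to 37.5 CPM. The paper reported Vgf as rescued by NACET in these same old retinas, and the lists were chosen with earlier results known. The p of Vgf is therefore a description and no separate evidence. So is the p of Spred3, from the same contrast and from a list chosen in the same way. In the 668-day mice alone, with 2 treated mice, 0 genes of all tested were called. Of 7 genes for CIC, its partners and ligase parts that degrade ETV proteins, none was called, 1 had an unadjusted p under 0.05, DESeq2 called 0, and the median was -0.02. That gene was Atxn1, which encodes a partner of CIC, at -0.20 (SE 0.06, adjusted p 0.122), and Det1 followed at -0.18 (SE 0.09, adjusted p 0.363).

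The immediate early genes, which answer to ERK and to neuronal activity within minutes, had the opposite sign to Etv4 in old mice. All 10 tested had a log2 change below 0 in old mice on NACET, with a median of -0.30. Of these, 3 were called lower by edgeR, against 0.543% of all genes called in either direction. DESeq2 called 4 of the list (Fos, Egr1, Egr4 and Nr4a1) and 373 of all genes. At an unadjusted p under 0.05 were 9 of the 10 and 14.4% of all genes tested. Egr1 went from an average of 17.5 CPM (SD 8.03, n = 4) to 6.55 CPM (SD 1.29, n = 6), which is -1.42 on the log2 scale (SE 0.24, adjusted p 0.0250 by edgeR). Fos fell by 0.86 on the log2 scale (SE 0.12, adjusted p 0.0126) and Nr4a1 by 0.70 (SE 0.12, adjusted p 0.0228). Calls in this contrast depended on the fit. All genes called by edgeR numbered 90 as reported, 8 without old control replicate 2 and 1 in the fit of all 4 groups. The immediate early genes were not followed across those fits. Their p-values in old mice on NACET are descriptions too, since the list was chosen with earlier results known. In young mice, 0 of 11 were called by edgeR or by DESeq2, 5 had an unadjusted p under 0.05, and the median was -0.43 with none above 0. The 2 with the smallest p there were Arc, at -0.75 (SE 0.23), and Npas4, at -0.45 (SE 0.18), both with an adjusted p of 1.

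In young mice on NACET, no gene of the other pathway lists was called by edgeR or DESeq2 either, and list medians lay between -0.06 and 0.02. The smallest unadjusted p among them belonged to Ccnd1 (cyclin D1), at 0.37 (SE 0.11, p 0.00381, edgeR adjusted p 1).

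**Figure D4:**
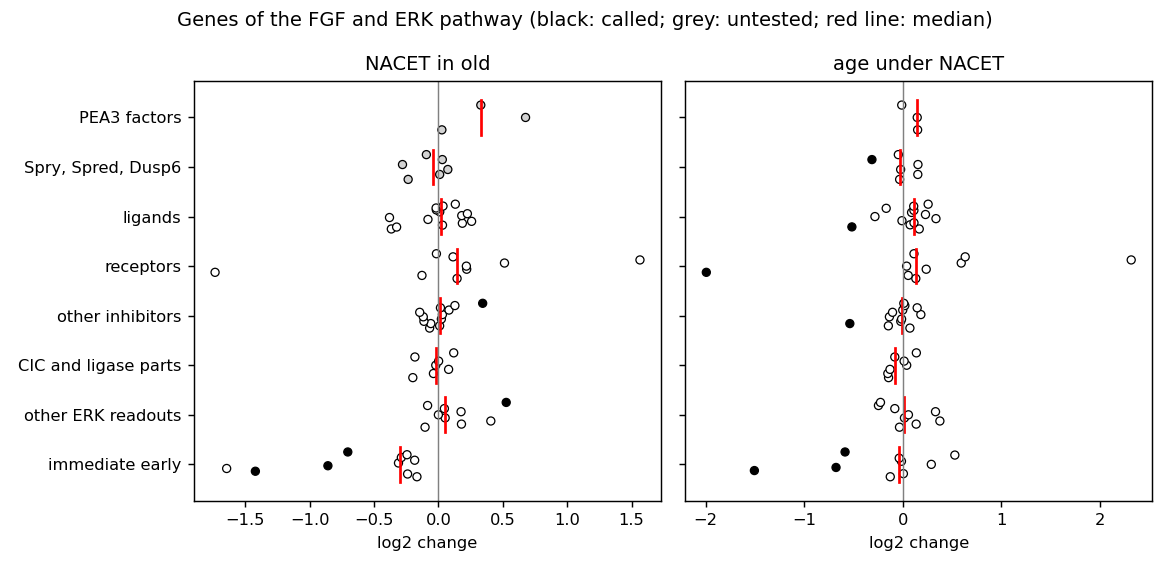
Log2 change (horizontal axes) of each tested gene of 8 lists (rows) on NACET in old mice and with age under NACET. Black points were called, grey points belong to the 9 genes in the contrast that chose Etv4, and red lines are list medians. Immediate early genes lie left of 0 in old mice on NACET (median -0.30), and Dusp5 is the black point among other inhibitors with age (-0.54).

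With age, another ERK inhibitor was lower besides Spry2. Dusp5, a nuclear phosphatase of ERK, averaged 19.3 CPM (SD 1.44, n = 6) in young mice on NACET and 13.8 CPM (SD 0.985, n = 6) in old ones. It fell by 0.54 on the log2 scale (SE 0.07, adjusted p 0.000411 by edgeR). The old libraries were at 12.1 to 15.1 CPM and the young at 17.5 to 20.8 CPM, without overlap. In controls its log2 change was -0.40 (SE 0.09, adjusted p 0.0547), which did not pass. The median of the 12 other inhibitors was -0.00443 under NACET and -0.10 in controls.

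With age under NACET, edgeR called 7 of 79 tested genes of the 7 pathway lists, Dusp5 included, and 4.88% of all genes. At an unadjusted p under 0.05 were 23 of the 79 and 21.1% of all genes. Egf fell by 0.51 on the log2 scale (SE 0.12, edgeR adjusted p 0.0217), and the receptor gene Erbb3 fell by 1.99 (SE 0.46, adjusted p 0.0196). Erbb3 was at 0.467 to 4.61 CPM in young and 0.193 to 0.878 CPM in old NACET libraries, and the summed corneal markers were at 18.5 to 472 CPM in the same young libraries and 16.1 to 34.0 CPM in the old. Their part in the Erbb3 result was not tested. Fos, Egr1 and Nr4a1 were lower in old than in young NACET mice as well, by -0.68, -1.51 and -0.58 (adjusted p 4.91e-05, 2.95e-05 and 0.00759). In controls, 0 of 82 tested genes of the 7 pathway lists were called with age by edgeR, against 1.42% of all genes. At an unadjusted p under 0.05 were 13 of the 82 and 16.3% of all genes. DESeq2 called 4 of them, with Btc, Dusp5 and Vgf among them. The smallest adjusted p were those of Dusp5, above, and of Btc, at 0.50 (SE 0.12, adjusted p 0.0631). Fgfr3, an FGF receptor gene, was at 0.99 (SE 0.32, adjusted p 0.160).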

How the data were processed

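Each library came as 1 table of raw read counts per gene, as deposited, with no normalization by the authors. According to labels and methods, polyA TruSeq libraries were sequenced as single ends, aligned to mm9 with TopHat2 2.1.0 and Bowtie, and counted with HTSeq 0.11.2 without regard to strand. The annotation used for counting is not given in the sources used here. Rows without a gene name, 0.000942% to 0.00218% of reads, were left out, as were reads outside genes, ambiguous reads and reads with more than 1 alignment. Over 42 pairs of libraries of the same group, none held identical values.

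CPM is counts divided by the gene counts of the library, times 1e+06. The test was the quasi-likelihood F test of edgeR 4.0.16 (R 4.3.3), after its default expression filter and TMM scaling, with Benjamini-Hochberg adjustment over all genes tested. Each pair of groups was fitted alone and the interaction over all 20 libraries. Genes with an adjusted p under 0.05 count as called. The SE is the log2 change divided by the square root of F. DESeq2 1.42.0 was an alternative, beside others in the closing section. The code was tested on simulated data. Depth was 17.7 to 31.1 M gene counts per library, and the lowest count of a member was 66, so that counting error was largest for Etv4, Etv1 and Spry1. With 4 to 6 mice a group, each test set the difference between groups against the spread between mice. Members, pathway lists and tests were chosen with earlier results of these data known. Named beside the members were all called genes of each pathway list apart from 1 that is not reported here, up to 2 with the smallest p where none was called, and the 5 genes most like Etv4.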

Additional observations from a re-analysis of the deposited data

Results flagged for a closer look

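Spry2 in old control replicate 2 was at 27.6 CPM, below the other old controls at 29.7 to 30.1 CPM, and its gap to them was 0.852 of the group's range. Of 36 groups examined over the 9 genes, this was the only sample that stood apart by this measure, and chance flags about 1 in 20 groups. The same library had the highest summed corneal markers (485 CPM) and retinal pigment epithelium markers (223 CPM) of all 20, whose part in this value was not tested. Without it, Spry2 was still called lower with age in controls (log2 change -0.39, edgeR adjusted p 0.0401).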

How the results depend on the processing

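Counts of calls for NACET in old mice describe the fit, since Etv4 was chosen on that contrast. Members called there, 1 as reported, were 2 with DESeq2 and with no filter, and 0 with the replicate block, the fit of all 4 groups, the 668-day mice alone and the 668-day cohort as a covariate. All genes called numbered 373, 150, 17, 1, 0 and 1 under these 6 settings, against 90. The causes were not tested, other than that the 668-day fit held fewer samples. Leaving out 1 library gave 8 to 110 genes and 0 to 1 members, and the lowest counts were those without old control replicate 2. For NACET in young mice, the replicate block called 6 genes and leaving out 1 library 0 to 8 (8 without young control replicate 4). With age in controls, 724 genes were called with DESeq2, 461 in the fit of all 4 groups, 79 with labelled sex as a covariate and 113 to 414 without 1 library. With age under NACET, they were 1312 with DESeq2, 422 with the replicate block and 478 to 922 without 1 library, with 1 to 2 members (Spred1 was added without old NACET replicate 6). The interaction gave 88 genes with DESeq2, 49 with no filter and 0 to 77 without 1 library. The numbers of replicates do not pair the samples: with 4, 4, 4 and 6 same-numbered pairs in the comparisons, only 1, 1, 1 and 2 had a correlation of deviations over 0.1. With the replicate block, Etv4 on NACET in old mice was at 0.61, and the calls of Spry2 with age did not change.

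Signs that turned belonged to members with small reported log2 changes. The farthest from 0 were Etv4 (-0.15) and Spry4 (-0.13) with age in controls and Spry1 (-0.10) in the interaction. Etv4 with age in controls was at 0.26 under labelled sex. Under NACET in old mice, the 668-day mice alone and the cohort covariate gave -0.0263 and -0.0261 for Etv1, -0.00962 and -0.0105 for Spry2, and -0.0418 and -0.0431 for Spred2. Spred1 in young mice was -0.0176 with the replicate block, and Etv5 with age under NACET was 0.0497 with labelled sex. Without 1 library, log2 changes ran from -0.0182 to 0.0887 (Dusp6) and -0.00149 to 0.144 (Etv5) for NACET in young mice. They ran from -0.0293 to 0.130 (Etv1) and -0.0329 to 0.0677 (Spred1) for NACET in old mice, and from -0.279 to 0.0214 (Etv4) and -0.245 to 0.0439 (Spry4) for age in controls. For age under NACET they were -0.0829 to 0.0195 (Dusp6), -0.0475 to 0.0109 (Etv5), -0.0616 to 0.00717 (Spred2) and -0.0875 to 0.0214 (Spry4). For the interaction they were -0.0734 to 0.0288 (Spred1), -0.247 to 0.00294 (Spry1) and -0.0902 to 0.200 (Spry4).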
